A study of Mus musculus with 4514 samples.

Results

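The comparison described here sets 83 hepatocytes labelled 8N beside all hepatocytes labelled 4N, from mice at postnatal day 60 (P60), in a series of 4514 samples. The 4N cells fall into stretches of 7, 25, 16, 45, 19 and 32 cells, described below, which together are the whole 4N group. Members were chosen by the ploidy label alone and read from the deposited table of cells processed with mSTRT-seq, a well-based method in which each picked cell is reverse transcribed and the barcoded products of many cells are pooled for a library. Every P60 cell used here carried the same genotype, Alb-Cre with a Rosa-tdTomato reporter. Alb-Cre is a recombinase driven by the albumin promoter, so the reporter marks hepatocytes and any cell descended from a cell that used that promoter. The labels name no treatment and no animal. A further pair of P60 groups of that genotype are given beside the comparison where it helps, the cells labelled 2N (stretches of 5, 6, 16, 5 and 93 cells) and cells with no ploidy label. No label says whether a 4N or an 8N cell had 1 nucleus or 2, and whether 2 cells were picked as 1 was not tested.

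Polyploidy is the normal state of most hepatocytes in an adult rodent. It arises after birth, mainly when a hepatocyte replicates its DNA and divides its nucleus but does not complete cytokinesis, and a binucleate cell that enters another cycle can yield daughters with larger nuclei. Ploidy is often studied together with zonation, the division of labour along the liver lobule, in which periportal hepatocytes make urea and glucose and pericentral hepatocytes carry out drug metabolism and make glutamine. Mitotic genes such as Cdk1, the kinase that drives entry into mitosis, and Aurka, a kinase of the spindle poles, are transcribed mostly in late S, G2 and M phase and are nearly silent in resting hepatocytes.

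Because no animal is named, the cells of each ploidy make 1 pool, and no test between 8N and 4N is possible. Levels are gene counts scaled to the same fixed total in every pool or cell (CPM) of summed gene counts without ERCC, the synthetic RNAs added to each well. Their 95% exact Poisson intervals, and the exact binomial intervals of shares of cells, cover counting error only. Each ploidy's single pool held 24874880 gene counts for 4N and 15469538 for 8N. Gene counts per cell ran from 34593 to 594420 with a median of 148166 in the 4N cells, and from 35572 to 740878 with a median of 143795 in the 8N cells. No 2 cells held identical counts. A count from the Y-linked gene Ddx3y was present in 94.4% of 4N and 95.2% of 8N cells, and one from Xist in 3 and 1 cells. Both pools were dominated by hepatocyte transcripts. Albumin (Alb) reached 19095 CPM in the 4N and 17588 CPM in the 8N pool, transthyretin (Ttr) 10312 and 9848 CPM, and the hepatocyte transcription factor Hnf4a 272.4 and 303.8 CPM.

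The cells did not form 1 homogeneous series within a ploidy. Gene counts per ERCC count changed in steps along the number that ends each cell's title, here called its label number. A search for steps of at least 0.75 in log2, with at least 5 cells on each side, divided the 4N cells into 6 stretches and the 8N cells into 5. The 4N stretches are named in order of label number, from the first to the sixth. Their medians ran from 18.7 gene counts per ERCC count in cells 33 to 48, the third stretch, to 1413 in the fifth (19 cells, from number 94 on). Those of the 8N cells ran from 11.8 in cells 1 to 8 to 378.5 in cells 34 to 68. The spread within stretches varied. In the sixth 4N stretch (32 cells) the lowest, median and highest ratio were 86.9, 105.99 and 259.99, and in 8N cells 69 to 83 they were 66.8, 113.2 and 237.9. In 8N cells 23 to 33 they were 13.5, 23.2 and 94.5, a spread wider than some of the steps. The labels do not say what a stretch is (an animal, a day, a plate or a library), and what made the steps was not tested.

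**Figure D1:**
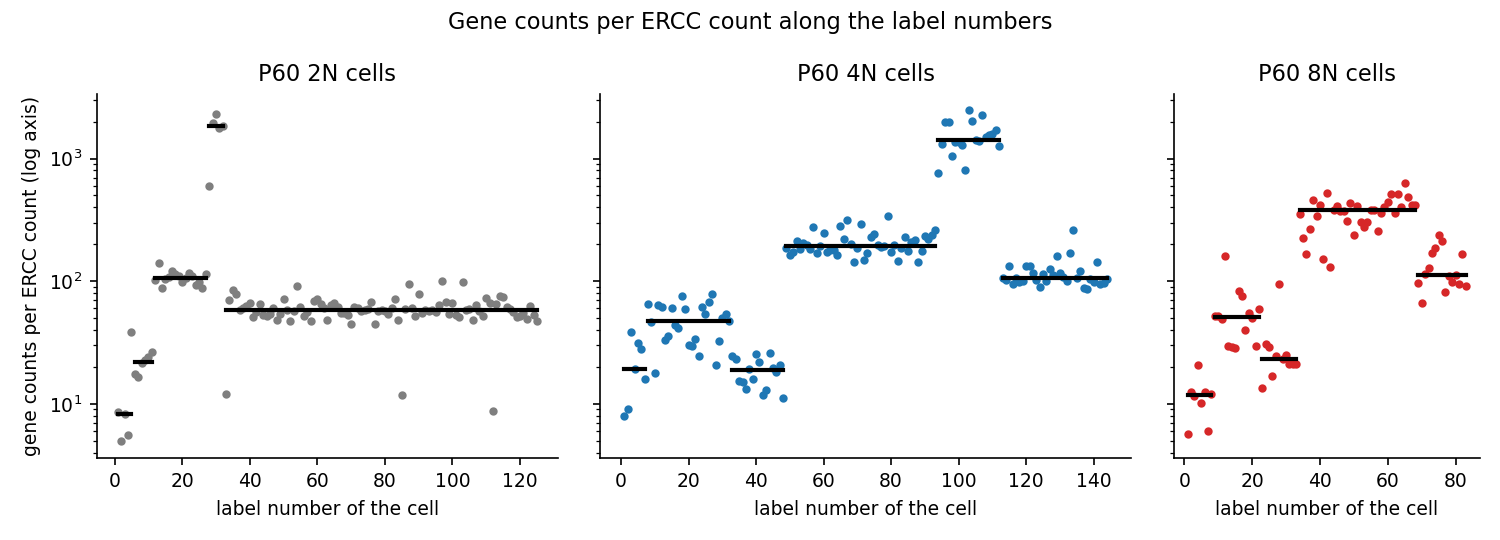
Gene counts per ERCC count (log axis) of each P60 cell against its label number, in panels for the 2N, 4N and 8N cells. Each point is a cell and each black line the median of a stretch of label numbers. The ratio moves in steps, from 18.7 to 1413 between 4N stretches and from 11.8 to 378.5 between 8N stretches.

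To give values within stretches as well as over whole pools, 4N and 8N stretches were matched by their gene expression, without use of ERCC. Each stretch pool was thinned to 270000 counts, and stretches that were each other's best match by Spearman correlation across the compared genes were paired. In all, 3 such pairs were found. Cells 34 to 68 of the 8N group matched cells 49 to 93 of the 4N group (0.870 across 6845 genes, next best 0.843). Cells 69 to 83 of the 8N group matched the sixth 4N stretch (0.867, next best 0.807), and 8N cells 9 to 22 matched 4N cells 8 to 32 (0.846, next best 0.788). These are called the first, the second and the third pair below. The other stretches had no mutual match. Pairs were chosen for likeness after the data were seen, so likeness within them supports nothing. They hold different cells, and genes are not independent replicates.

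Gene counts relative to ERCC were nearly equal in the 8N and 4N cells when whole groups were compared. The lowest, median and highest gene counts per ERCC count were 8.02, 122.9 and 2485 in the 4N cells and 5.71, 127.5 and 630.98 in the 8N cells, and the quartiles were 49.4 and 210.96 in 4N against 30.2 and 362.3 in 8N. The ratio of the medians, 8N over 4N, was 1.04, and the groups overlapped, except at the top of the 4N range. No cell lacked ERCC counts. The 2N cells had a median of 59.3. The figure for whole groups depended on how it was taken: the ratio of means was 0.635 and that of the pooled counts 0.922. The fifth 4N stretch, which had no 8N match, ran from 763.4 to 2485, above every 8N cell.

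Within matched stretches the ratio of 8N to 4N was not the same. In the first pair the 8N cells had a median of 378.5 gene counts per ERCC count (lowest 130.2, highest 630.98) and the 4N cells 194.8 (lowest 142.8, highest 342.5), a ratio of 1.94. In the second pair the medians were 113.2 and 105.99, a ratio of 1.07, and in the third 50.7 and 47.6, a ratio of 1.06. A near doubling of gene counts per ERCC count was thus seen in 1 of 3 pairs, and a difference well inside the spread between cells in the other 2. The 2N stretch most like the 8N cells of the first pair, cells 12 to 27, had a median of 106.7, and that most like those of the second, the cells from number 33 on, had 58.3. Along the first set the medians were therefore 106.7, 194.8 and 378.5 for 2N, 4N and 8N, and along the second 58.3, 105.99 and 113.2. Along the third, with 2N cells 6 to 11, they were 22.1, 47.6 and 50.7. The first set depends on close matches. The next 2N stretch in likeness to 8N cells 34 to 68 was cells 28 to 32 (0.82 against 0.829), with a median of 1837. The next 4N stretch was the fifth (0.843 against 0.870), with a median of 1413. The fold from 4N to 8N shares its 4N cells with that from 2N to 4N. Median ERCC counts per cell were 576 for 8N and 751 for 4N in the first pair, and 2803 and 2814 in the second. The amount of ERCC added per well is not given in the sources used here.

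Gene expression in the pools was almost the same in 8N and 4N cells. Of 6845 genes that reached 10 CPM in at least 1 of the pools, 79.6% lay within 1.2-fold of each other, and the log2 levels had a Pearson correlation of 0.991 across genes. Only 9 genes, 0.131% of those compared, were at least 2-fold apart on the log2(CPM + 1) scale, 2 higher and 7 lower in 8N. With TMM factors the split was 3 higher and 5 lower, and per ERCC count, which moved the median of all compared genes to -0.12 in log2, it was 1 higher and 14 lower. At 1.5-fold, 1.91% of the genes were apart, 56 higher and 75 lower.

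**Figure D2:**
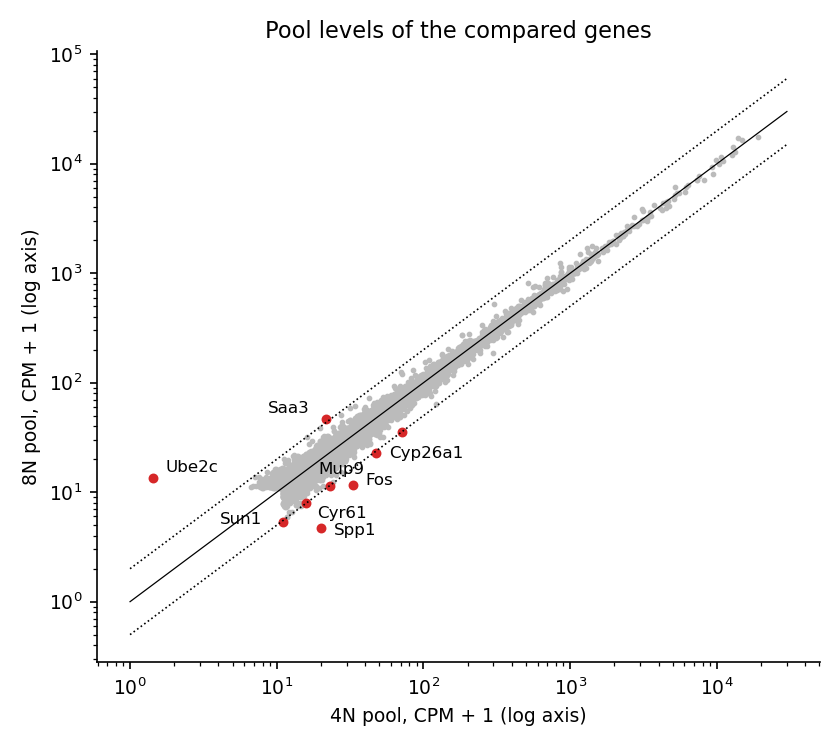
Level of each of 6845 compared genes in the 8N pool against the 4N pool, as CPM + 1 on log axes, 1 point per gene. The solid line marks equal levels and the dotted lines a 2-fold difference. Red points are the 9 genes at least 2-fold apart, of which 2 lie above and 7 below; the 8 described in the text are named.

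Of the 7 genes lower in 8N, 6 are described here, Spp1, Fos, Cyp26a1, Sun1, Mup9 and Cyr61. Cyp26a1, which breaks down retinoic acid, had 46.6 CPM (interval 43.9 to 49.3) in 4N and 21.6 CPM (19.3 to 24) in 8N. Cyr61, a secreted matrix protein and well-known target of the Hippo pathway, had 14.9 and 6.92 CPM. Of all 7, Cyp26a1 and Cyr61 were the 2 that also held 2-fold in the mean of per-cell CPM and without the top cell, with under 20% of the counts in any cell. The other 4 are named because they are few, and Sun1 and Mup9 were chosen after their values were seen. Per cell, the median of Cyp26a1 was 0 in both groups and the highest values were 354.05 CPM in 4N and 225.9 CPM in 8N, so the groups overlapped. Cyp26a1 is on chromosome 19 (37697798 to 37701536, GRCm38).

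Neither direction held in every pair of stretches. Cyp26a1 was higher in the 8N cells of the first pair (log2 difference 1.76) and lower in those of the second and the third (-0.89 and -0.44). It stood at 120.9 CPM in the fifth 4N stretch and 63.6 CPM in the sixth, against 5.76 CPM in cells 49 to 93. Cyr61 was lower in the first and the third pair (-0.95 and -0.53) and not in the second (0.08).

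Fos, an immediate-early transcription factor gene, had 32 and 10.7 CPM, with 116.1 CPM in the fifth 4N stretch and 22.1 CPM or less in every other 4N stretch. Fos was lower in 8N in the first and the second pair (-0.86 and -1.29) and higher in the third (1.51).

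Sun1 encodes an inner nuclear membrane protein that links the nuclear lamina to the cytoskeleton. It had 10 CPM (8.81 to 11.3) in 4N and 4.33 CPM (3.36 to 5.5) in 8N. The sign was the same in all 3 pairs, with log2 differences of -0.13, -1.30 and -1.50. A count was present in 31.9% of 4N cells (24.1 to 40.4%) and in 17.7% of 8N cells (10 to 27.9%) after every cell was thinned to 50000 gene counts. By the mean of per-cell CPM the log2 difference was -0.86 and not 2-fold. Sun1 is on chromosome 5 (139200637 to 139249840).

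Spp1, which encodes osteopontin and is high in bile duct cells, had 19.1 CPM in 4N and 3.68 CPM in 8N, and 42.2% of its 4N counts came from the cell numbered 79. Without the top cell the log2 difference was -1.84, and in the 3 pairs it was -3.60, 0.06 and -1.36. Mup9, a major urinary protein gene, had 22.2 and 10.3 CPM, with 36.6% of the 4N counts in the cell numbered 85, a log2 difference of -0.53 without the top cell, and -1.35, -0.05 and 0.08 in the 3 pairs. The Mup genes are near-identical in sequence, so the member is uncertain.

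The 2 genes higher in 8N, Ube2c and Saa3, were each carried by a single cell. Saa3, an acute-phase protein, had 45.8 CPM in 8N and 20.7 CPM in 4N, and 68.1% of the 708 counts in 8N came from the cell numbered 69. Without the top cell its log2 difference was 0.28. It was lower in 8N in the first and the third pair (-2.61 and -1.76) and higher in the second (4.70).

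Ube2c, the ubiquitin-conjugating enzyme of the anaphase-promoting complex, had 12.4 CPM in 8N (10.7 to 14.3) and 0.442 CPM in 4N (0.221 to 0.791). Of its counts in the 8N pool, 97.9% were in the 8N cell numbered 52. Without that cell the 8N pool stood at 0.261 CPM, below the 4N pool.

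That 1 cell carried most of the mitotic expression of the 8N group. Of the 25 genes of the G2 and mitosis list, 24 had a count in it, 21 had at least 50% of all their 8N counts in it, and 23 were higher in it, as CPM, than in any of the other 8N and 4N cells. The list summed to 7038 CPM in that cell. Among the other 8N cells the median was 46.1 CPM and the highest 157.5 CPM, and among the 4N cells the median was 52.3 CPM and the highest 309.3 CPM.

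Cdk1 had 8.27 CPM (6.9 to 9.84) in the 8N pool and 38 counts, 1.53 CPM (1.08 to 2.1), in the 4N pool. The cell numbered 52 held 110 counts, 85.9% of those in 8N, and without it the 8N pool stood at 1.18 CPM. Counts of Cdk1 were present in 9 of 83 8N cells and 14 4N cells (9.72%), and after thinning in 7.59% and 6.67%. Aurka had 5.17 CPM in 8N and 1.29 CPM in 4N. The same cell held 51 of its 80 counts in 8N, and without it the 8N level was 1.9 CPM (log2 difference 0.34). A count of Aurka was present in 8.86% of thinned 8N cells (3.64 to 17.4%) and in 3.7% of thinned 4N cells (1.21 to 8.43%), intervals that overlap. For both genes the pool difference was therefore large with the cell and small without it. Neither reached 10 CPM in a pool, so neither is among the 6845 genes compared.

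Other regulators of mitosis showed the same distribution. Cyclin B genes Ccnb1 and Ccnb2 had 69 of 70 and 72 of 74 of their 8N counts in the cell numbered 52. All 42 counts of Plk1, a kinase of mitotic entry and exit, were in it, as were all 10 of the checkpoint kinase gene Bub1 and all 11 of Aurkb, the kinase of the chromosomal passenger complex. Plk1, Bub1 and Top2a (DNA topoisomerase II alpha, 61 counts in 8N) had 0 counts in the 4N pool, where 3 counts would make 0.121 CPM. Cenpf, a kinetochore protein, had 96.6%, Hmmr, a spindle assembly factor, 82 of 84, and Tpx2, an activator of Aurka, 45 of 46. Foxm1 and Mybl2, transcription factors of this programme, had 2 of 3 and 0 of 5. Cks2, a small Cdk-binding protein, was not restricted to that cell, with 55 of 722 counts and pool levels of 46.7 CPM in 8N and 48.2 CPM in 4N.

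Cytokinesis genes followed, with 9 of the 12 measured at 50% or more in that cell. Prc1, which bundles the central spindle, had 83 of 85 counts in it, Anln (anillin, of the contractile ring) 21 of 22, and Racgap1, part of the centralspindlin complex, 17 of 18. Kif23, its motor partner, had 5 of 6, and the passenger-complex subunit Incenp 19 of 20. Rhoa, the GTPase that organises the contractile ring and serves many other roles, had 17 of 1249 and differed little between the pools (83.9 CPM in 4N, 80.7 CPM in 8N).

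The replication genes were less concentrated in that cell. Of the 20 S phase genes 10 had a count in it and 1, Mcm5, was at its highest there. Their sum, 395.9 CPM, was above the highest of the other 8N cells (250.4 CPM) and of the 4N cells (339.5 CPM), with medians of 126.3 and 141.5 CPM. It held 9.68% of the 8N counts of Tyms, 0.719% of those of Pcna and none of Mcm3, Mcm4 or Mcm7. The cell had 171781 gene counts, 568 ERCC counts and 7759 detected genes. Its ratio of 302.4 gene counts per ERCC count lay below the median of its stretch, 378.5. Albumin stood at 23146 CPM in it, against a median of 19088 CPM over the 8N cells. Such cells were thus 1 of 83 in 8N, a share of 1.2% (exact binomial interval 0.0305 to 6.53%), and none in 4N, which allows a share of up to 2.08% (3 cells of the total). The class is defined by the cell that prompted it, so no comparison of its frequency was made.

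**Figure D3:**
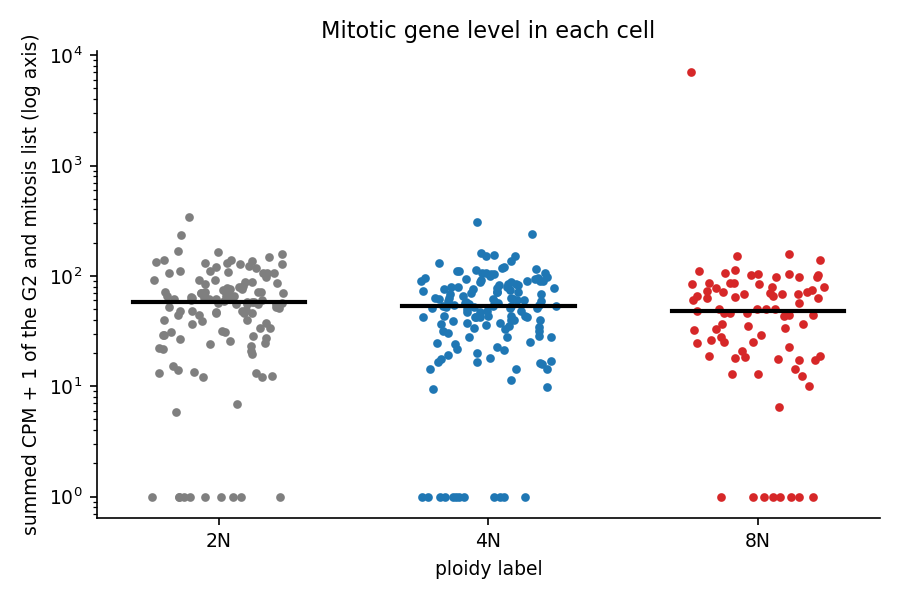
Summed level of the 25 G2 and mitosis genes in each P60 cell, as CPM + 1 on a log axis, for the 2N, 4N and 8N labels. Points are cells, spread sideways for legibility, and black lines are medians. One 8N cell stands at 7038 CPM, above all other cells shown.

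Mitotic genes that are active together in this way are known to share promoter elements, the CHR element bound by the DREAM and MuvB complexes and the CCAAT box bound by NF-Y. The stretch of 150 bases before the RefSeq start (GRCm38.p6) is shown for the 4 list members with the most counts in the cell numbered 52, and for Aurka, 5′ to 3′ on the gene's strand, to let the shared elements be seen. Capitals mark TTTGAA or its reverse complement TTCAAA, the CHR core, and CCAAT or its reverse complement ATTGG.
Ube2c (chr2:164769779-164769928, plus strand): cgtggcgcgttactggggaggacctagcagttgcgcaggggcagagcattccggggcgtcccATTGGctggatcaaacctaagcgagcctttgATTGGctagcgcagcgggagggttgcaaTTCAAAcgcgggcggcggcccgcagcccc
Cenpf (chr1:189688087-189688236, minus strand): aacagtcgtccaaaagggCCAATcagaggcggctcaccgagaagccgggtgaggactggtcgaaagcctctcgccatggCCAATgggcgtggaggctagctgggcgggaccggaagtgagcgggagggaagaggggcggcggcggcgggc
Cdk1 (chr10:69352913-69353062, minus strand): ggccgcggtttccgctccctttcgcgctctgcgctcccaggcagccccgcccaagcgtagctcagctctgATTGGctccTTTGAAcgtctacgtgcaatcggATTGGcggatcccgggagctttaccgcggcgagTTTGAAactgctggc
Hmmr (chr11:40733438-40733587, minus strand): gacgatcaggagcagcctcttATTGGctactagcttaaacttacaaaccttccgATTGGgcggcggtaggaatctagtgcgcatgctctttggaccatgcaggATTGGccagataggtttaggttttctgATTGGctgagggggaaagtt
Aurka (chr2:172370571-172370720, minus strand): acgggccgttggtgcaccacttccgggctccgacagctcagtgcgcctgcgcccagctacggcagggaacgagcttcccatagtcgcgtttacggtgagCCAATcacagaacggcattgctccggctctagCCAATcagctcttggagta

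Each of these 5 promoters held at least 2 CCAAT boxes, and Hmmr held 4. Cdk1 held 2 CHR cores and Ube2c 1. RefSeq gave a promoter for 21 of the 25 list members. Over the 250 bases before the first listed start, 19 of the 21 (90.5%) held CCAAT on either strand, against 34.5% of 27025 genes, and 8 (38.1%) held the CHR core, against 16.3%. Both stood together in 8 of 21 (38.1%) and in 5.73% of all. A match of letters is a description and not a bound site.

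The 8N cell numbered 52 also carried many of the low genes that were apart because of 1 cell. When genes at 1 CPM or more were admitted, 1.42% of 11089 were 2-fold apart, 78 higher and 79 lower in 8N. Of these, 52 had at least 50% of the higher pool's counts in 1 cell, and 36 of the 52 were carried by that 8N cell. Among them were Nusap1, Aspm, Cenpa, Cenpe and Mki67, all known mitotic genes outside or inside the fixed list. Without the cell, 16 genes remained carried by 1 cell at that level.

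S phase genes were not higher in 8N. Of 20 on the list, 4 reached 10 CPM and none was 2-fold apart, with a median log2 difference of -0.44 against -0.00 over all compared genes. Tk1, thymidine kinase, had 42.1 CPM in 4N and 27.2 CPM in 8N, and Tyms, thymidylate synthase, 12.6 and 8.02 CPM. Pcna, the sliding clamp of DNA polymerase, had 22 and 18 CPM. Among the pairs, Tk1 and Tyms were furthest below 4N in the second (-1.06 and -0.81), and Tk1 was higher in 8N in the first and the third (0.34 and 0.31). The fifth 4N stretch, with no 8N match, had 51 CPM of Tk1 and 15.6 CPM of Tyms. How much each stretch gave to the pool differences was not tested. Over the 4 compared genes the pair medians were 0.10, -0.57 and -0.11.

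Known regulators of hepatocyte ploidy that reached 10 CPM were close to equal in the pools. Of 20 listed, 9 were compared, none was 2-fold apart, and the median log2 difference was -0.14. Cdkn1b, the cell cycle inhibitor p27, had 11.1 CPM in 4N and 14.4 CPM in 8N, and Cdkn1a, the inhibitor p21, 15.1 and 17.9 CPM. Akt1, a kinase of insulin signalling that acts in binucleation, had 25.5 and 20.2 CPM, and Lats2, a Hippo kinase, 11.8 and 9.89 CPM. Trp53, which limits polyploid cells, had 13.5 and 13.6 CPM, and E2f4 10.7 and 11.6 CPM. Cdkn1b was higher in 8N in all 3 pairs (1.05, 0.25 and 0.80).

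Members under 10 CPM included E2f8, a repressor required for polyploidization, with 5.07 CPM in 4N and 8.27 CPM in 8N (ratio interval 1.27 to 2.11). E2f8 was higher in 8N in all 3 pairs (8.63 CPM in 4N and 13.4 in 8N, 1.75 and 4.03, and 6.7 and 8.19). In the unmatched stretches E2f8 was higher in 4N. It stood at 8.65 CPM in 4N cells 1 to 7 and 9.15 CPM in 4N cells 33 to 48. In the 4N stretch that starts at number 94 it stood at 4.5 CPM. In the unmatched 8N cells 1 to 8 and 23 to 33 it stood at 0 and 2.55 CPM. Casp2 and Pidd1, which act together in the PIDDosome that senses extra centrosomes, had 1.29 and 2.65 CPM, and 1.89 and 3.1 CPM (ratio intervals 1.27 to 3.38 and 1.08 to 2.51). Casp2 was higher in 8N in all 3 pairs (1.00, 0.22 and 1.01), but Pidd1 in the first only (1.10, -1.26 and -0.51), and it stood at 27 and 14.5 CPM in the unmatched 8N cells 1 to 8 and 23 to 33. E2f7 had 0 counts in both pools. The p53 targets, of which 9 were compared, had a median log2 difference of 0.14 with none 2-fold apart. Gdf15, a secreted stress factor, was highest among them with 30.4 CPM in 4N and 44.9 CPM in 8N, and it was higher in all 3 pairs (0.60, 0.64 and 1.55).

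Zonation genes differed between the groups in different ways in different stretches. A zonation index was taken for each cell as the log2 ratio of summed pericentral to summed periportal CPM (34 and 30 genes). Its lowest, median and highest values were -6.53, -3.75 and 1.92 in 4N and -5.47, -3.38 and 1.84 in 8N, so the 8N median was higher by 0.38 with full overlap. The 2N median was -4.63. In the first pair the medians were -1.28 in 8N and -4.37 in 4N, a difference of 3.09. In the second they were -3.92 and -3.88, and in the third -3.99 and -3.88. By means the differences in the 3 pairs were 1.43, 0.16 and -0.65, from -1.30 ± 2.07 in 8N and -2.73 ± 2.74 in 4N (SD over cells) in the first. The fifth 4N stretch, with no 8N match, had a median of 0.32, the highest of all stretches of either group. The largest difference toward pericentral levels thus lay in the first pair, in which gene counts per ERCC count also differed. The part of either in the other was not tested.

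**Figure D4:**
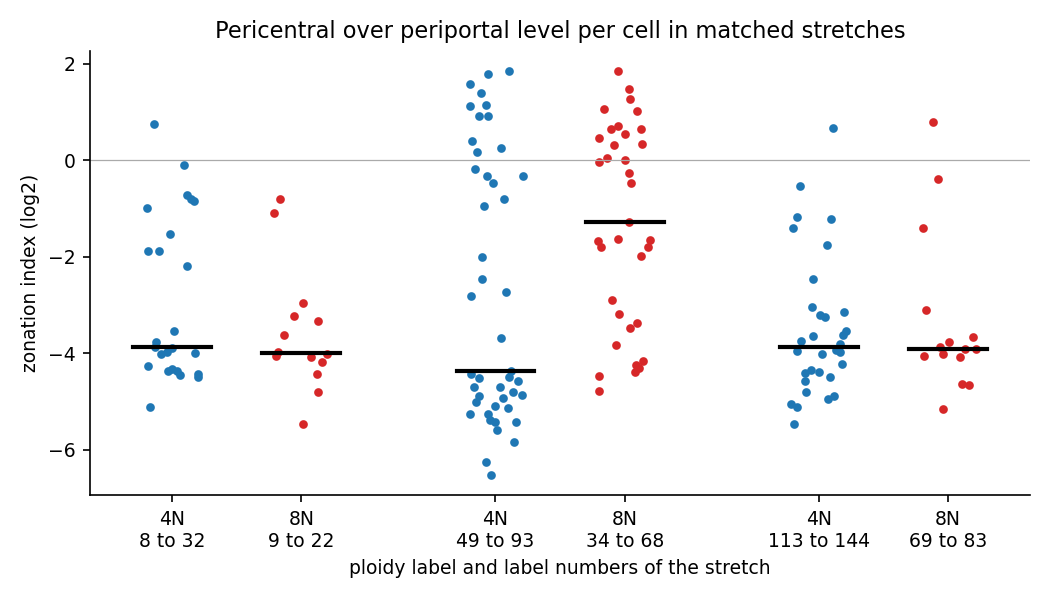
Zonation index of each cell (log2 of summed pericentral over summed periportal CPM) in the 3 matched pairs of stretches, 4N in blue and 8N in red. Points are cells, spread sideways for legibility, and black lines are medians. The medians are -1.28 in 8N and -4.37 in 4N in the pair of 8N cells 34 to 68, and within 0.11 of each other in the other pairs.

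None of 27 compared pericentral and 30 compared periportal genes was 2-fold apart in the pools, with medians of 0.08 and -0.17 in log2, with 18 of 27 and 7 of 30 above 0, against 49.2% of all compared genes. Cyp2e1, which oxidises ethanol and many drugs, had 2720 CPM in 4N and 3259 CPM in 8N, with log2 differences of 0.70, 0.44 and -1.26 in the 3 pairs. Aldh1b1, a mitochondrial aldehyde dehydrogenase, had 64.7 and 45.4 CPM, with pair differences of -3.55, 0.01 and 0.76. Cdh1, E-cadherin, had 39.4 and 27.8 CPM and was lower in 8N in all 3 pairs (-1.22, -0.36 and -0.65). Cyp2c40 had 70.7 and 120.2 CPM and pair differences of 0.70, -0.48 and -0.51, though the Cyp2c genes are alike in sequence and the member is uncertain.

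Glul and Slc1a2 mark the hepatocytes next to the central vein. Glul, glutamine synthetase, had 120.8 CPM (116.6 to 125.2) in the 4N pool and 63.5 CPM (59.6 to 67.6) in the 8N pool. It was lower in 8N in the first pair (-1.51, from 274.1 to 95.3 CPM) and slightly higher in the second and the third (0.34 and 0.18). The difference rested on few cells: 4 4N cells had 1000 CPM or more (2.78%, interval 0.762 to 6.96%) and 0 of 83 8N cells, which allows a share of up to 3.61% (3 cells of 83; exact upper limit 4.35%). Those 4 lay in 4N cells 49 to 93 (3 cells) and in the fifth 4N stretch (1 cell). The highest 8N cell had 734.4 CPM. A count of Glul was present in 61.5% of thinned 4N and 69.6% of thinned 8N cells.

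Slc1a2, a glutamate transporter, went the other way, with 69.2 CPM (66 to 72.5) in 4N and 124.96 CPM (119.4 to 130.7) in 8N. The 8N cell numbered 75 held 41.6% of the 1933 counts, and without the top cell of each pool the log2 difference fell from 0.84 to 0.36. By the mean of per-cell CPM it was 0.08. Cells with 100 CPM or more were 11 in 4N (7.64%) and 6 of 83 in 8N (7.23%), with 0 in 2N, which allows up to 2.4%. In the first pair the levels were 171.7 CPM in 4N and 170.01 CPM in 8N, and in the second 0.719 and 154.6 CPM. The 8N side of the second pair holds the cell numbered 75, and only 1 of its 15 cells had 100 CPM or more. A count was present in 14.1% of thinned 4N cells (8.69 to 21.1%) and 25.3% of thinned 8N cells (16.2 to 36.4%), against 5.41% of 2N cells. The 4N pool is shared between this comparison and any reading of 4N against 2N.

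Across the remaining lists, medians lay close to that of all compared genes. Of 25 lists with at least 3 compared members, 4 had a median of 0.2 or more in either direction: S phase, the unfolded protein response, interferon and female-biased genes. In the unfolded protein response, by which a cell raises the folding capacity of its endoplasmic reticulum, 17 of 19 compared genes were above 0 (49.2% of all compared genes were) and none was 2-fold apart, with a median of 0.22. Hspa5, the main chaperone there, had 857.1 CPM in 4N and 1249 CPM in 8N, Creld2 107.3 and 159.5 CPM, and Syvn1, a ubiquitin ligase of the same organelle, 23.2 and 38.6 CPM. Hspa5 varied more between stretches than between ploidies, with 1849 CPM in 4N cells 49 to 93 and 2070 in their 8N match, against 458.3 and 496.6 CPM in the second pair. The 8N cells 34 to 68 made up 42.5% of the counts of their pool and the matching 4N cells 25.1%. Within the pairs the list medians were 0.28, -0.09 and 0.04, beside 0.18, -0.11 and -0.02 for all compared genes.

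Of the acute-phase genes, which the liver raises in inflammation, the serum amyloids varied widely between stretches. Saa1 had 510.7 CPM in 4N and 815.8 CPM in 8N, and Saa2 300.7 and 519.99 CPM, with counting between these near-identical genes uncertain. Saa1 stood at 5316 CPM in 4N cells 33 to 48 and 5742 CPM in 8N cells 23 to 33, and at 72.1 and 21 CPM in the first pair. Over the 14 compared acute-phase genes the median was 0.01, with 1 gene, Saa3, 2-fold higher. Heat shock gene Hspa1b had 26.3 CPM in 4N and 49.8 CPM in 8N, with log2 differences of 0.59, 0.10 and -2.57 in the 3 pairs.

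Metabolic lists differed little. Plasma protein genes had a median of -0.06, with 26 of 28 below 0, and oxidative phosphorylation genes -0.04, with 28 of 34 below 0, where 50.8% of all compared genes were below 0. Fatty acid oxidation (18 compared) stood at 0.07, fatty acid synthesis (13) at -0.08, cholesterol synthesis (19) at -0.06, the urea cycle (12) at -0.06, bile acid genes (17) at 0.05 and drug metabolism (25) at -0.01, each with 0 genes 2-fold apart. Acot1, an acyl-CoA thioesterase, had 41.6 CPM in 4N and 72 CPM in 8N, and Scd1, the stearoyl-CoA desaturase, 1303 and 1716 CPM. Both were higher in 8N in the first pair only (0.61 and 0.36). Gpam, the first enzyme of glycerolipid synthesis, had 11.5 and 7.43 CPM, with pair differences of 1.33, -0.60 and -1.99. The 78 compared ribosomal protein genes had a median of -0.00. Clock genes had a median of -0.19, with Cry1 at 24.3 and 15.6 CPM and Arntl at 6.75 and 10.7 CPM.

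Ranges of folds within stretches were wider and their directions differed. At least 2-fold apart were 2.19% of the 6845 genes in the first pair (1.62% higher and 0.57% lower in 8N), 3.11% in the second (0.628% and 2.48%) and 6.84% in the third (2.86% and 3.97%), each from fewer counts than the pools. The pair folds were not alike across the 6845 genes. Pearson's r was -0.184 between the first and the second pair, 0.054 between the first and the third, and -0.052 between the second and the third, as a description with no test.

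**Figure D5:**
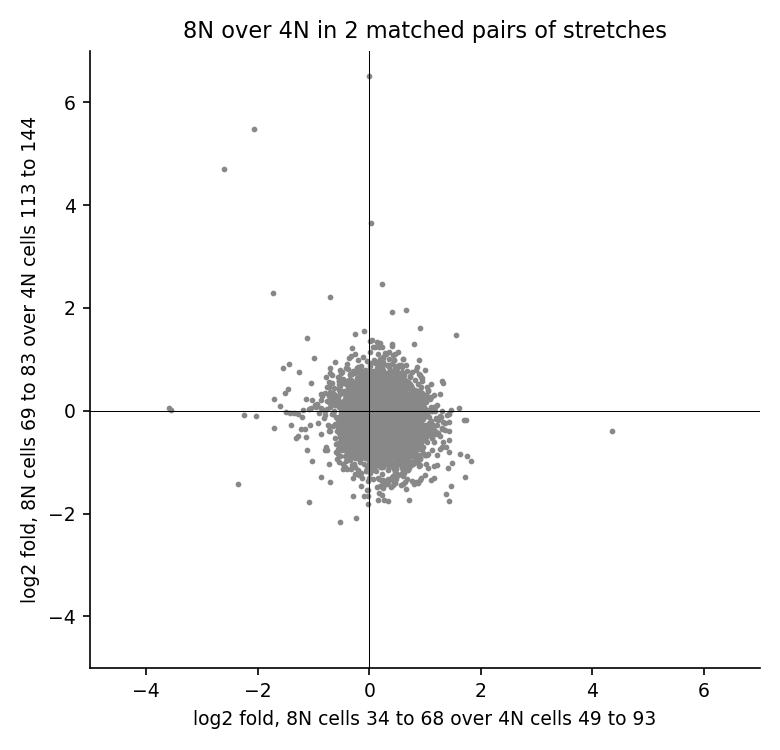
The log2 fold of 8N over 4N for each of 6845 compared genes in the second matched pair of stretches against the first, 1 point per gene. Lines mark no difference. The points form a round cloud with no rising trend (Pearson's r -0.184), and few genes lie far out on both axes.

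In the first and the second pair, which have at least 15 cells on each side, 37 genes (0.541% of those compared) were at least 1.5-fold apart the same way, 25 higher and 12 lower in 8N. In all 3 pairs it was 5 higher and 1 lower, and at 2-fold none. The 5 were Arl5c, Gdf15, Patl1, Ripk4 and Srbd1, and the 1 was BC051077, picked out after their values were seen. The top cell held 22.8%, 13.5%, 17.8%, 14.5% and 7.43% of the pool counts of the 5, and 10.9% of those of BC051077. Arl5c, an ADP-ribosylation factor-like GTPase gene, had 6.15 CPM in 4N and 12.7 CPM in 8N. Patl1, a factor of mRNA decapping, had 7.64 and 14.2 CPM, and Ripk4, a protein kinase gene, 5.87 and 10.3 CPM. Srbd1, an RNA-binding domain gene, had 10.2 and 19.1 CPM, and its log2 differences in the 3 pairs were 0.80, 1.3 and 0.80.

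The share of cells in which a gene was counted was also much alike. After thinning to 50000 gene counts, which left out 9 4N cells and 4 8N cells, 21 of 6845 genes (0.307%) differed by at least 20 percentage points, 15 more often counted in 8N and 6 in 4N. Unthinned, the split was 12 and 1, and at 100000 counts 51 and 5. Mtf1, the metal-responsive transcription factor, was counted in 26.7% of 4N cells (19.4 to 35%) and 51.9% of 8N cells (40.4 to 63.3%), and unthinned in 54.2% and 68.7%. Ccnk, the cyclin partner of transcription kinases, was counted in 27.4% and 50.6%, and Ablim3, an actin-binding protein, in 23.7% and 46.8%. On the other side, Txndc11 was counted in 67.4% of 4N and 44.3% of 8N cells, Klhdc10 in 55.6% and 32.9%, and Orc4, a subunit of the origin recognition complex, in 45.9% (37.3 to 54.7%) and 24.1% (15.1 to 35%). Within pairs, levels and not shares of cells were taken, as log2 differences in CPM. By level, Mtf1 and Ccnk were higher in 8N in the first and the third (0.98 and 0.90, 0.85 and 1.51) and lower in the second (-0.43 for both). Ablim3 was likewise lower in the second (-0.50), and Klhdc10 was higher in the first (0.58). Orc4 was lower in the first and the second pair (-0.25 and -0.79) and higher in the third (0.23).

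The number of genes detected per cell at 50000 counts had a median of 5209 in 8N (2869 to 5987) and 5159 in 4N (3235 to 5975). Unthinned medians were 6727 and 6674. In the first pair 8N cells detected more, with a median of 5511 against 5135, and in the second fewer, with 5152 against 5298. In the third the medians were 5135 and 5170.

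Other liver cell types left few counts in either pool. Endothelial markers summed to 4.22 CPM in 4N and 4.46 CPM in 8N, macrophage markers to 1.05 and 0.646 CPM, stellate and fibroblast markers to 4.34 and 6.4 CPM, and lymphocyte and neutrophil markers to 0.844 and 0.453 CPM. Of 12 endothelial genes 3 were at 0 in 4N and 5 in 8N. The 10 erythroid and platelet markers, with haemoglobin genes and Car2 among them, summed to 21.9 CPM in 4N and 23.7 CPM in 8N. Their highest cell stood at 1209 CPM in 4N and 405.9 CPM in 8N. The 8 cholangiocyte markers summed to 28.2 CPM in 4N and 12 CPM in 8N, mostly Spp1 and Sox9, while the defining markers Krt19 and Epcam had 1 and 4 counts in 4N and 0 in 8N. These values move with the lower Spp1 of the 8N pool, and their part in it was not tested.

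Nuclei give a second view of DNA content at P60. Labels distinguish 66 nuclei as 2x2N, 69 as 1x4N and 56 as 2x4N, pools of 12193695, 21195886 and 18022186 gene counts. Mitotic genes were low: Cdk1 had 0, 0 and 0.499 CPM, Aurka 0.492, 1.42 and 2.05 CPM, and Ube2c was listed at 0 in each. Sun1 had 18.9, 18 and 16 CPM. Cyp26a1 had 0, 5.28 and 4.72 CPM, and Cyr61 0, 3.21 and 15.3 CPM. Glul had 251.4, 107.8 and 181.3 CPM and Slc1a2 159.3, 55.2 and 0.0555 CPM in 2x2N, 1x4N and 2x4N nuclei. Between 2x4N and 1x4N nuclei, Glul was thus higher and Slc1a2 lower in 2x4N. Against 2x2N nuclei, both genes were lower in 2x4N. Cell and nuclear levels are different measurements, and each nuclei group is again 1 pool without a test.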

How the data were processed

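The authors deposited whole-number counts per gene for each mSTRT-seq cell and each nucleus, with 92 ERCC entries beside 40824 genes. The submitters' processing notes name TopHat2 2.1.0, HISAT2 2.1.0, UMI-tools 0.5.0, featureCounts 1.5.3 and 2.0.0 and HTSeq 0.6.0, with builds GRCm38 and mm10, without roles. Whether strand was used, and whether counts are reads or molecules, is not given in the sources used here. Columns of other ages and nuclei were not used (1643 in the cell table and 922 in the nuclei table).

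Counts were summed per ploidy label without ERCC and scaled to CPM. Genes at 10 CPM or more in at least 1 of the 4N and 8N pools were compared as log2(CPM + 1), and at least 2-fold counted as apart. No label names an animal, so each pool is 1 sample and no test was made. Cells were thinned without replacement to 50000 gene counts for shares and detected genes. No doublet caller was run. Each pick had its own well, and whether a well held 2 cells was not tested. The scripts were tested on simulated data.

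Genes named are Cdk1, Aurka and the cell cycle, cytokinesis and polyploidy lists, genes at least 2-fold apart (those held by a single cell apart from the rest), the 10 largest share differences each way, up to 4 genes of each list, the most counted genes and Slc1a2, beside genes picked afterwards where said. Some genes that this rule names are not reported here. The members and gene lists were chosen with earlier results of these data known. Software was Python 3.11.15, numpy 2.4.6, pandas 2.3.3, scipy 1.17.1 and, for TMM, edgeR 4.0.16 in R 4.3.3. Gene coordinates come from GENCODE M21 and promoter sequences from RefSeq (GRCm38.p6).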

Additional observations from a re-analysis of the deposited data

How the results depend on the processing

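No paired analysis was possible because each ploidy is 1 pool and no result comes from a test. The comparison within matched stretches, the 1.5-fold count and leaving out the 8N cell numbered 52 were chosen after seeing the data. The 0.131% of compared genes that were 2-fold apart (9 genes) became 0.218% per ERCC count (15 genes), 0.234% by the mean of per-cell CPM, 0.233% with 4N cells weighted to the 8N zonation index, 0.234% with a pseudocount of 0.1 CPM and 0.0438% with 5 CPM. It became 1.42% at 1 CPM or more, 0.0373% at 50 CPM or more, 1.91% at 1.5-fold, and 6.84%, 2.19% and 3.11% in the third, the first and the second pair of stretches. Other settings gave 0.117% to 0.167%. The ERCC ratio of 1.04 became 1.1 for cells with at least 100 ERCC counts, 0.922 pooled, 0.635 as a ratio of means, 1.13 without cells under 50000 gene counts, 1.02 without the most counted ERCC entry, and 1.94, 1.07 and 1.06 in the 3 pairs. The 2 genes carried by 1 cell became 4 at 25%, 1 at 75%, 52 at 1 CPM, 0 at 50 CPM and 1 without the 8N cell numbered 52. The 21 genes with shares 20 points apart became 13 unthinned and 56 at 100000 counts, where fewer cells remain. The difference of 50 in median genes detected became 53.5 unthinned, 57 at 20000 counts, 266.5 at 100000, and 376.00, -145.5 and -34.5 in the 3 pairs. The zonation difference of 0.38 became 0.69 without the 3 most abundant members of each list, 0.23 as a difference of means, 0.43 thinned, 0.78 as a mean of log2 levels, 3.09, -0.04 and -0.11 in the pairs, and 1.43, 0.16 and -0.65 in the pairs by means. The 4 lists with a median of 0.2 or more became 8 at 1 CPM. Among genes 2-fold apart, signs reversed for Ube2c without its top cell (-0.07), without the 8N cell numbered 52 (-0.19) and in the second pair (-0.39), for Saa3 in the first (-2.61) and the third pair (-1.76), for Cyp26a1 in the first (1.76), for Spp1 (0.06) and Cyr61 (0.08) in the second, and for Fos (1.51) and Mup9 (0.08) in the third. Except where the setting itself leaves out cells or genes, the cause was not tested. With cells from an unnamed number of animals, a difference between ploidies cannot be told apart from one between animals or stretches.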

Other observations

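The search for steps of at least 0.75 in log2 did not divide the P60 cells without a ploidy label. A smaller step would not have been found. Read cell by cell, most ratios from number 91 on lay above most of those before it, so these cells were not 1 even series either. These cells had a lowest, median and highest ratio of 117.6, 315.3 and 727.7 gene counts per ERCC count. Their zonation index had a median of -2.42 and ran from -5.36 to 1.59. Among them, 3 cells (1.72%) had Glul at 1000 CPM or more and 11 (6.32%) had Slc1a2 at 100 CPM or more. Ube2c stood at 0.604 CPM in that pool, Cdk1 at 1.34 CPM and Aurka at 1.37 CPM.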
